A study of Mus musculus with 44 samples.

Results

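Aggrecan is the large proteoglycan that gives cartilage its resistance to compression. Many aggrecan molecules sit along a chain of hyaluronan, each bond locked by a link protein, and smaller adaptor proteins tie this gel to the collagen fibrils around it. The genes for these molecules are classical products of chondrocytes and of the progenitors that give rise to them. Here 8 such genes were followed: Acan (the aggrecan core protein), Hapln1 (the cartilage link protein), Matn1, Matn3 and Matn4 (matrilins, adaptors between fibrils and proteoglycans), Chad and Chadl (chondroadherin and chondroadherin-like, leucine-rich repeat proteins that bind collagen) and Snorc (a small membrane proteoglycan of chondrocytes). They were taken by symbol from the 46831 genes kept of the count table, and all 8 were found, with Snorc listed there under the older symbol 3110079O15Rik.

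The libraries came from SLIM-seq, in which RNA carrying N6-methyladenosine (m6A) is pulled down with an antibody (IP) and sequenced beside the unselected RNA (input). Cells were sorted by surface antigens from the ends of long bones of mice at postnatal day 3. The 32 wild-type (WT) libraries covered 8 populations with 2 IP and 2 input libraries each. Their labels give no floxed allele; the study's controls for the knockout were Mettl3 fl/fl mice, and whether all WT libraries came from such mice is not given in the sources used here. Of these, the skeletal stem cell (SSC), the pre-BCSP (pBCSP) and the bone, cartilage and stromal progenitor (BCSP) are called stem/progenitor here, and PCP (pro-chondrogenic progenitors), THY, BLSP, 6C3 and HEC are called downstream. A further 12 libraries, labelled Mettl3cko, were from SSC, pBCSP and BCSP of Mettl3 fl/fl mice with Col2a1-Cre, which acts in cells that have expressed type II collagen; Mettl3 encodes the catalytic subunit of the m6A methyltransferase. Both genotypes were on the C57BL/6J background, mice were taken regardless of sex, and the genotype is given in the sample titles only, since the genotype field reads wild type in every library.

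Input libraries held 19795666 to 44046651 counts in WT and 30050178 to 35325482 in Mettl3cko, and IP libraries held 16480027 to 35856651 and 22056571 to 33126857. Replicates correlated at r = 0.95 to 0.98 in WT input and 0.89 to 0.92 in WT IP on the log2 CPM scale across genes, and at 0.80 to 0.84 in Mettl3cko IP. The summed level of 7 chondrocyte markers (Col2a1, Col9a1, Col9a2, Col9a3, Col11a1, Col11a2 and Sox9) was 106210 to 125440 CPM (counts scaled to the size of the library) in the 6 WT stem/progenitor inputs, 82116 and 103620 CPM in HEC, and 8114 to 89271 CPM in the other downstream inputs. PCP, named for cartilage, stood at 18694 and 22306 CPM. Summed markers of osteoblasts were at 5105 to 11278 CPM in the WT stem/progenitor and 66366 to 143550 CPM in the downstream inputs, a sum carried by Col1a1 (4921 CPM in SSC and 91549 in PCP), since of the 6 markers 4 were higher in the stem/progenitor populations and Col1a1 alone was lower (median log2 fold change 0.95). Those of fibroblasts and tendon were at 107 to 249 and 550 to 2672 CPM, those of stroma at 23.9 to 118 and 125 to 2371 CPM, those of blood at 6.58 to 17.1 and 12.8 to 92.0 CPM, and those of muscle at 21.6 to 53.1 and 5.26 to 12.8 CPM. The muscle sum was carried by Tnnt3 (26.6 CPM in SSC and 5.48 in PCP), the 1 of 5 markers that was higher, while Myh3 was lower and the median was -0.78. The part of the cells that these lists mark in the differences between these populations was not tested. In sorted bulk cells, fewer chondrocytic cells and less RNA per cell cannot be told apart.

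The sequence most often methylated by Mettl3 is the run GGACU, written GGACT in DNA letters, with the A modified. It was counted on the sense strand of the longest protein-coding transcript of each gene (GENCODE vM21, GRCm38). Acan held 23 copies in 7355 bases, 3.13 per kb, a density at or above that of 97.9% of 20906 genes, whose median was 1.01 per kb. Matn4 held 4 copies (1.74 per kb). Hapln1 held 2, and Matn1, Matn3, Chad and Chadl held 1 each, at 0.33 to 0.60 per kb. Snorc, whose transcript is 478 bases, held none, as did 12% of genes. The count is of letters only and does not say which copies are methylated. It leaves out exon bases outside that transcript, and no other sequence was counted in the transcripts. For the 4 genes whose IP-to-input ratio differed between the stem/progenitor and downstream populations, the first copy inside a single coding exon is shown, with 12 bases on each side and the motif in capitals. The Acan copy lies in exon 4 of 17 (chr7:79086293-79086321, plus strand), that of Matn4 in exon 5 of 11 (chr2:164397212-164397240, minus), that of Chadl in exon 5 of 6 (chr15:81692180-81692208, minus) and that of Matn3 in exon 2 of 8 (chr12:8952008-8952036, plus).
Acan: acgctacaccctGGACTttgatcgagcac
Matn4: tgtcaactccgtGGACTcgtatttctgtc
Chadl: cctgcccaggctGGACTgccaggaaggcc
Matn3: gagcaggcctttGGACTtggtgttcatca

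In WT input RNA, 6 of the 8 genes were higher in the stem/progenitor populations than downstream, by 2.54-fold (Acan) to 170-fold (Matn1). The level of every gene differed among the 8 populations (edgeR quasi-likelihood test, adjusted p = 0.0168 for Chadl and at most 4.61e-05 for the other 7), where 40.1% of the 20060 genes tested did. In the contrast of the 3 stem/progenitor with the 5 downstream populations, 23.1% of genes were higher at adjusted p below 0.05. Per kilobase of exon, so that genes can be compared, Chad was the most abundant in SSC at 7687 ± 977 CPM per kb (SD, n = 2), ahead of Snorc at 1112 ± 50.9, Matn3 at 930 ± 234, Matn1 at 796 ± 238, Hapln1 at 251 ± 16.5 and Acan at 139 ± 44.1. Matn4 (48.0 ± 10.3) and Chadl (8.39 ± 4.38) were the least abundant.

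**Figure D1:**
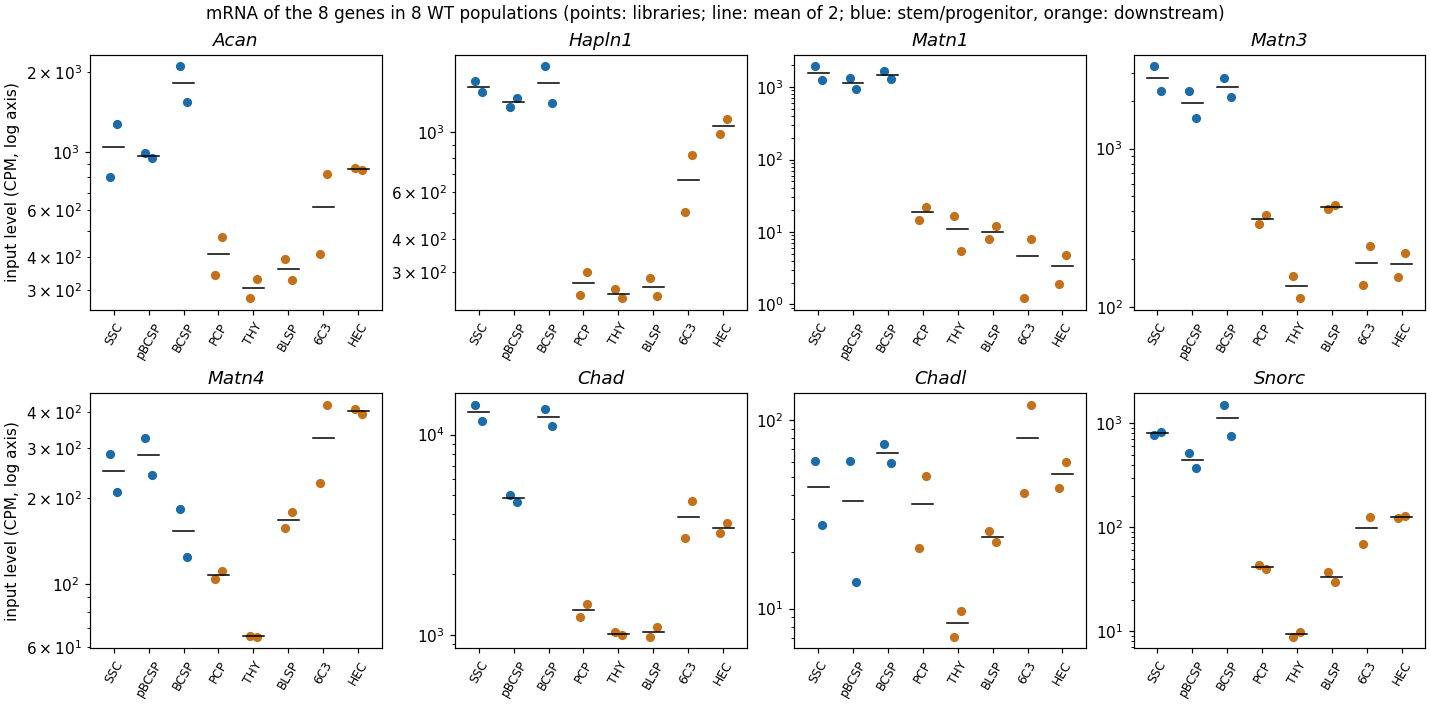
Input level in CPM (log axis) of each gene in the 2 libraries (points) of each WT population, with their mean (line), stem/progenitor in blue and downstream in orange. Matn1 separates the blue populations, at 929 CPM and above, from the orange, at 22.5 CPM and below, whereas Matn4 is highest in HEC.

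Acan was at 1540 and 2100 CPM in BCSP, 804 and 1270 in SSC, and 945 and 988 in pBCSP. Downstream it was at 852 and 865 CPM in HEC, 410 and 821 in 6C3, and 279 to 476 in PCP, BLSP and THY. The stem/progenitor and downstream libraries therefore overlapped, at HEC and 6C3. The contrast was a log2 fold change of 1.34 (SE 0.15, adjusted p = 2.38e-06). BCSP stood above SSC without overlap, and SSC and pBCSP overlapped.

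Hapln1, which locks aggrecan to hyaluronan, followed a similar order, from 1526 CPM on average in BCSP to 250 CPM in THY. Its lowest stem/progenitor library (1246 CPM) was above its highest downstream library (1124 CPM, in HEC). The contrast was 1.75 on the log2 scale (SE 0.12, adjusted p = 9.51e-09). PCP, BLSP and THY overlapped with one another, at 241 to 302 CPM. Over the 16 WT input libraries, Hapln1 and Acan correlated at r = 0.93 on the log2 CPM scale, a description over libraries that share their population structure.

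Among the matrilins, Matn1 showed the sharpest step of the 8 genes. It was at 1255 and 1930 CPM in SSC, 1300 and 1658 in BCSP, and 929 and 1348 in pBCSP. In the downstream populations it was at 14.7 and 22.5 CPM in PCP, 5.52 and 16.7 in THY, and 8.02 and 11.95 in BLSP. The lowest were HEC, at 1.91 and 4.82 CPM, and 6C3, at 1.22 and 7.97 CPM. The contrast was 7.41 on the log2 scale (SE 0.36, adjusted p = 2.95e-10), and the highest mean was 473-fold the lowest.

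Matn3 was at 1559 to 3300 CPM in the stem/progenitor libraries and at 113 to 441 CPM downstream, again without overlap (log2 fold change 3.30, SE 0.15, adjusted p = 1.54e-10). Its downstream order was led by BLSP (417 and 441 CPM) and PCP (335 and 380 CPM), while HEC, which ranked first downstream for Acan, Hapln1, Matn4 and Snorc, was at 155 and 220 CPM. Matn1 and Matn3 had r = 0.96 over the 16 libraries. Matn4 did not share this pattern: r was 0.06 with Matn1 and 0.21 with Matn3. It was highest in HEC (395 and 412 CPM) and 6C3 (227 and 425 CPM), lower in BCSP (124 and 183 CPM), and lowest in THY (65.4 and 65.5 CPM). Its stem/progenitor contrast was 0.32 on the log2 scale (SE 0.14) and missed the threshold (adjusted p = 0.0644), as did that of Chadl (0.57, SE 0.30, adjusted p = 0.122).

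Chad had the highest input level per kilobase of the 8 genes in every WT population, from 603 CPM per kb in THY to 7687 in SSC. It was at 11754 and 14075 CPM in SSC and 11068 and 13423 in BCSP, with pBCSP below both at 4609 and 4996 CPM. Downstream, 6C3 (3049 and 4680 CPM) overlapped with pBCSP and with HEC (3211 and 3609 CPM), while PCP, BLSP and THY were at 979 to 1424 CPM. The contrast was 2.32 on the log2 scale (SE 0.11, adjusted p = 1.75e-10). Chad was the only one of the 8 genes that differed between SSC and pBCSP, where it was 2.70-fold higher in SSC (adjusted p = 0.00316). In that comparison 0.214% of genes were higher in SSC. Between pBCSP and BCSP, Chad was 2.60-fold lower in pBCSP (adjusted p = 0.00557) and Snorc was also 2.60-fold lower (adjusted p = 0.0351), where 0.618% of genes were lower. The Snorc call was lost without the first BCSP library (log2 fold change -0.81, adjusted p = 0.296), without the second pBCSP library (-1.13, adjusted p = 0.241), and narrowly without either THY library (adjusted p = 0.0543 and 0.0558).

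Chadl was at 7.10 to 120 CPM, with replicates far apart. The pBCSP libraries were at 13.8 and 60.8 CPM and the 6C3 libraries at 41.0 and 120 CPM, and only BLSP and THY, the lowest pair, did not overlap with their neighbour in the order. Its differences among populations lost significance without either THY library (adjusted p = 0.0822 and 0.0601). Snorc was at 757 and 1503 CPM in BCSP, 777 and 829 in SSC, and 368 and 518 in pBCSP. It fell to 123 and 129 CPM in HEC, 68.8 and 126 in 6C3, 29.4 to 43.0 in PCP and BLSP, and 8.88 and 9.77 in THY. The contrast was 4.05 on the log2 scale (SE 0.16, adjusted p = 3.88e-11), and no downstream library reached a stem/progenitor library.

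PCP was compared with the other 4 downstream populations, since it is the one named for cartilage. Hapln1 was lower in PCP than in the other 4 on average (log2 fold change -0.76, SE 0.20, adjusted p = 0.0387). So was Matn4 (-0.86, SE 0.23, adjusted p = 0.0473), where 0.947% of genes were lower. PCP was not the lowest population for either gene. Mean Hapln1 was 274 CPM in PCP, 265 in BLSP and 250 in THY, with overlap, but 1057 in HEC and 666 in 6C3. Mean Matn4 was 108 CPM in PCP and 65.4 in THY, but 404 in HEC, 326 in 6C3 and 168 in BLSP. The Matn4 call was lost with library size alone (adjusted p = 0.0530) or with replicate number as a term (adjusted p = 0.0596). Matn1 (1.53, adjusted p = 0.0697) and Matn3 (0.75, adjusted p = 0.0744) did not pass. Both calls were lost whenever a PCP, THY or HEC library was left out (adjusted p = 0.0531 to 0.470 for Hapln1 and 0.0732 to 0.389 for Matn4), and so was the Matn4 call without either BLSP library and the Hapln1 call without the first. All 5 endothelial markers listed (Pecam1, Cdh5, Tek, Kdr and Emcn) were higher in PCP than in the other downstream populations, summing to 84.1 and 86.2 CPM against 1.13 to 9.75 CPM. In this contrast 3.15% of all genes were higher. Of 6 osteoblast markers 5 were higher, as were all 3 of stroma and 3 of 4 of hypertrophic chondrocytes, while 0 of 8 blood, 0 of 5 muscle and 0 of 4 fibroblast and tendon markers passed in edgeR, with 0 at an unadjusted p below 0.05 and 0 by DESeq2 in each. Their part in the result was not tested.

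The genes with the most similar levels to each member, among 10437 genes with a mean of at least 5 CPM, were sought over the 16 WT input libraries. For Acan they were Col11a1 (r = 0.97) and Col27a1 (r = 0.97), fibrillar collagens of cartilage, and Xylt1 (r = 0.96), which starts glycosaminoglycan chains on proteoglycan cores. Snorc was most like Lect1 (chondromodulin), Cpe and Col9a3 (all r = 0.98). Matn1 and Matn3 shared Mpst (r = 0.97 with both). Hapln1 was most like Ubtd1, Scin and Kcnq5 (r = 0.97 to 0.98), and Chad was most like Zfp385b, Slc38a3 and Zfp385c (r = 0.96 to 0.97). Matn4 (at most 0.92, with Itih2) and Chadl (at most 0.85, with Map2) had no neighbour as close.

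Lists of related genes, chosen with earlier results of these data known, were read in the same contrast, where the median log2 fold change of all genes was -0.11 (-0.21 with library size alone), 23.1% of genes were higher and 28.3% lower. All 16 measured cartilage collagens and other cartilage matrix genes were higher in this contrast of group means (median 2.27). Among them were Col2a1 (1.95), the main cartilage collagen, and Col9a2 (3.54). Single downstream populations could still match: Fmod was highest in HEC (7212 CPM on average, against 6841 in SSC). Col2a1 in HEC (63997 and 82625 CPM) overlapped with the stem/progenitor libraries. Of 9 cartilage transcription factors, 8 were higher (median 1.22), including Sox9 (0.96) and Sox5 (1.22), while Trps1 was at -0.10 (adjusted p = 0.581). The other hyaluronan-associated genes differed from Acan and Hapln1: of 11, 2 were higher and 4 lower (median -0.999). Vcan, the proteoglycan versican, was lower by -3.49, Matn2, a matrilin of non-cartilage tissues, by -2.31 and Cd44, a hyaluronan receptor, by -1.85 on the log2 scale. Of 9 aggrecan-cleaving proteases and their inhibitor, 1 was higher and 7 were lower (median -0.96), including the collagenase Mmp13 (-1.97) and the aggrecanase Adamts1 (-0.89). Mmp13 averaged 149, 12.5 and 99.1 CPM in SSC, pBCSP and BCSP. Downstream it averaged 33.8 CPM in HEC, 67.9 in THY, 163 in 6C3 and 463 in BLSP, and the PCP libraries were at 776 and 5056 CPM. The inhibitor Timp3 was at -0.04 (adjusted p = 0.848).

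The promoters of Matn1 and Matn3, whose levels moved together, are shown with that of Chad, the most abundant gene. Each is the 300 bases from 250 before to 50 after the RefSeq start (GRCm38.p6): chr4:130944135-130944434 for Matn1, chr12:8947679-8947978 for Matn3 and chr11:94564797-94565096 for Chad, all on the plus strand. Of the 8 genes, 7 had a promoter in the table. Both strands were searched for the SOX-type runs ACAAAG and ACAATG, which 18.7% and 12.6% of 32851 promoters hold, and for the TATA run TATAAA, which 13.6% hold. No member promoter held ACAAAG, Chadl held 1 ACAATG, and Chad held 1 TATAAA, the part in capitals. These matches are descriptions and not sites.
Matn1: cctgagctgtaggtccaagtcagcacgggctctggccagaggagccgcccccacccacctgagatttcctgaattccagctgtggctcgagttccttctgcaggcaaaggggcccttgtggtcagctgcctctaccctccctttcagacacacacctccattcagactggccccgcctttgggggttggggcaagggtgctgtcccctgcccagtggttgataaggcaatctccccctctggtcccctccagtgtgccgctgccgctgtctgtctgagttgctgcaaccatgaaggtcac
Matn3: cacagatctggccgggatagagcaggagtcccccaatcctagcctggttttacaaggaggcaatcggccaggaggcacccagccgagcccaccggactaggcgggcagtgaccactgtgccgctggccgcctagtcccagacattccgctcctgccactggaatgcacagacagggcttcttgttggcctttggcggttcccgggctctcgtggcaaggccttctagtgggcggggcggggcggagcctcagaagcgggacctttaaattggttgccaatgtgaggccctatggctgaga
Chad: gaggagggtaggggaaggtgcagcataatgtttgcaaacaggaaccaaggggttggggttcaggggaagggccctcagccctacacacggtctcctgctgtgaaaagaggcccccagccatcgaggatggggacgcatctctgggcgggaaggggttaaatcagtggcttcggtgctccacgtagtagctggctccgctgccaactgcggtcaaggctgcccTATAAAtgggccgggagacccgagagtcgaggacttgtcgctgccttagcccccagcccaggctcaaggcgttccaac

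The m6A readout was then taken as the IP-to-input ratio within each WT population. The tests compared IP with input libraries as groups. Replicate ratios divide IP by input of the same number, which was not shown to mark pairs. Their spread, and whether they overlap between groups, depends on that matching. A gene was called m6A-tagged by the study's rule, a log2 ratio over 1 with an unadjusted p below 0.05. Of the 64 pairs of gene and population, 11 were tagged (8 with an adjusted p below 0.05). These were Snorc in 7 populations, Acan in SSC and pBCSP, and Chadl in SSC and BCSP. Among all genes tested, the share tagged was 14.5% in 6C3, 13.5% in HEC, 12.4% in BLSP as in THY (12.4%), 12% in pBCSP, 10.6% in PCP, 10.4% in SSC and 6.67% in BCSP. The mirror of this rule, chosen after the values were seen (a log2 ratio under -1 with an unadjusted p below 0.05), held for 17 of the 64 pairs. It took in Matn4 in all 8 populations, Matn3 in the 3 stem/progenitor populations, Matn1 in 4 populations and Chadl in PCP and 6C3. Among all genes, the share past this mirror rule was 17% in 6C3, 15% in THY, 14.8% in pBCSP as in BLSP (14.8%), 14.5% in PCP, 14.2% in HEC, 13.9% in SSC and 11.7% in BCSP.

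**Figure D2:**
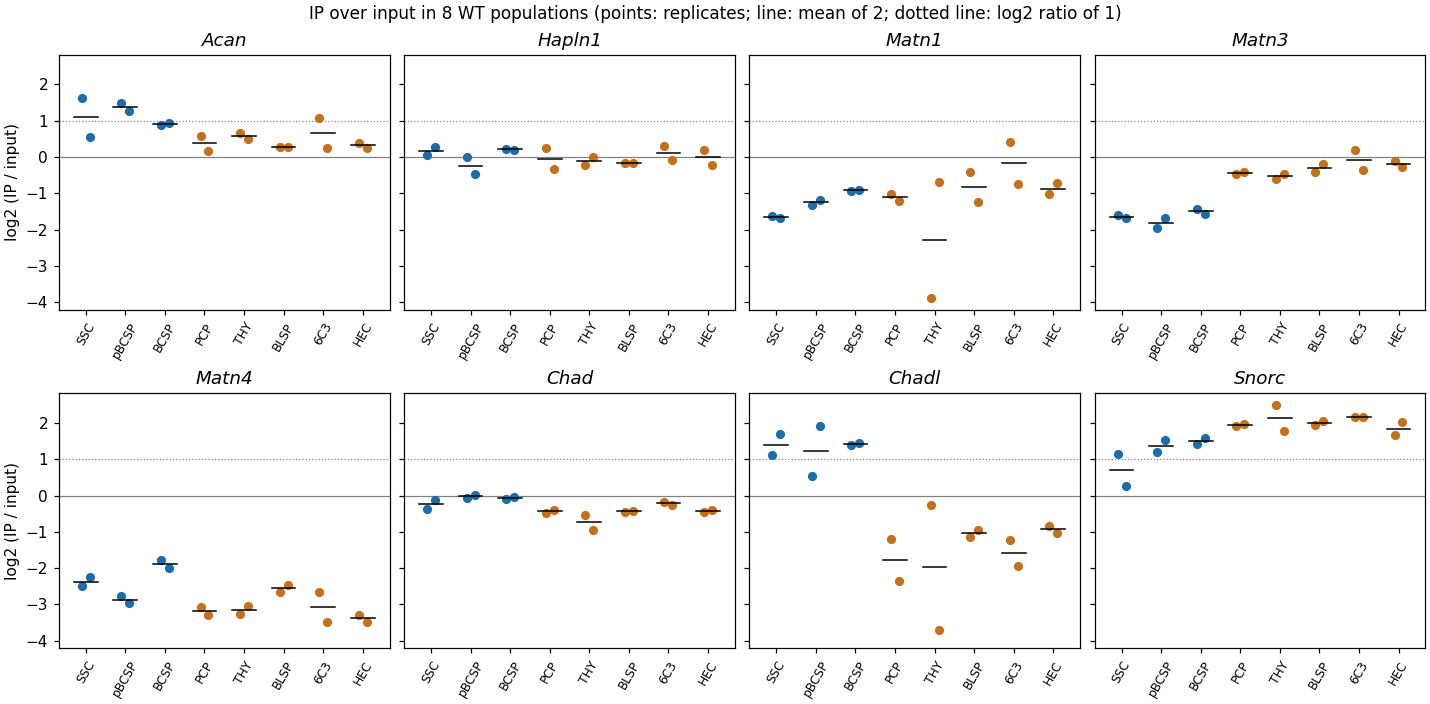
Log2 IP-to-input ratio of each gene in the 2 replicates (points, IP and input matched by number) of each WT population, with their mean (line). Stem/progenitor populations are in blue and downstream in orange. The grey line is at 0 and the dotted line at the log2 ratio of 1 that the tag requires. Snorc lies above 0 and Matn4 at -1.77 or below in every replicate, and Chadl is above 0 in the blue and below 0 in the orange populations.

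The IP level of Snorc exceeded its input level in every WT replicate. Its log2 ratio was 1.96 to 2.26 in the 5 downstream populations (adjusted p at most 0.0122) and 1.36 (adjusted p = 0.0122) and 1.42 (adjusted p = 0.0932) in pBCSP and BCSP; without the first BCSP IP library the latter was 0.97 and no longer tagged. It was 0.78 in SSC (unadjusted p = 0.0461), where the replicates were at 1.15 and 0.26. No stem/progenitor replicate (0.26 to 1.59) reached a downstream one (1.66 to 2.49). Among the 8 transcripts searched, that of Snorc was the only one with no GGACT. It has 478 bases, while the annotated exons of Snorc hold 722, and the rest was not searched.

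Matn4 was the opposite case. Its log2 ratio was -1.92 to -2.85 in the stem/progenitor populations and -2.47 to -3.29 downstream, and the adjusted p was below 0.05 in all 8 (at most 0.0472, in BCSP). In HEC its level was thus 9.75-fold lower in IP than in input. Its transcript held 4 copies of GGACT, second in density to Acan among the 8. Rbpjl overlaps Matn4 on the opposite strand, as the pseudogene Gm8546 does Hapln1, and reads of these overlaps cannot be told apart.

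Acan was tagged in SSC (log2 ratio 1.10, unadjusted p = 0.0140, adjusted p = 0.0827) and pBCSP (1.40, adjusted p = 0.00814). In BCSP it was at 0.85 (unadjusted p = 0.0108) and downstream at 0.36 to 0.67. Matched by number, the 2 SSC replicates were far apart, at 1.64 and 0.56 (IP 2497 and 1875 CPM, input 804 and 1270 CPM). The tag in SSC was lost without the first IP library (0.85) or the first input library (0.77). The downstream replicates were at 0.16 to 1.09 and those of the stem/progenitor populations at 0.56 to 1.64, so the groups overlapped. In THY (0.67) and HEC (0.42) the adjusted p was below 0.05 (0.0292 and 0.0270), with the ratio under the tag.

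Chadl changed sign between the groups. Its replicates were at 0.54 to 1.91 in SSC, pBCSP and BCSP and at -0.25 to -3.70 downstream, without overlap. Its tag in SSC was lost without the second input library (0.89). The lowest downstream value, in THY, came from 14 IP counts, and the fitted log2 ratio there was -1.27 (unadjusted p = 0.183). L3mbtl2 overlaps Chadl on the opposite strand, and the library does not mark strand, so reads of the overlap cannot be told apart. The level of L3mbtl2 did not pass the test between the groups (log2 fold change -0.04, adjusted p = 0.919), nor did its ratio (-0.47, adjusted p = 0.900).

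Matn1 and Matn3 shared ratios under 0 in the stem/progenitor populations, at -0.97 to -1.61 and -1.54 to -1.82. Downstream they parted: Matn3 was at -0.07 to -0.43, and no downstream replicate overlapped with a stem/progenitor one, whereas Matn1 was at -0.50 to -2.18 with replicates from -3.88 to 0.43. The downstream Matn1 ratios rested on 20 to 229 IP counts. Hapln1 (-0.22 to 0.20 in the 8 populations) passed in none (unadjusted p at least 0.231), and Chad (-0.02 to -0.62) passed after adjustment in THY alone (-0.62, adjusted p = 0.0423).

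The difference of the ratio between the stem/progenitor and the downstream populations was tested over the 32 WT libraries. It was positive for Chadl (2.65, SE 0.45, adjusted p = 0.000515), Matn4 (0.75, SE 0.21, adjusted p = 0.0301) and Acan (0.74, SE 0.19, adjusted p = 0.0198) on the log2 scale, where 3.06% of the 25365 genes were higher. It was negative for Matn3 (-1.29, SE 0.21, adjusted p = 0.000294), where 1.77% of genes were lower. Snorc was at -0.80 (SE 0.24, adjusted p = 0.0532), and its adjusted p was below 0.05 under all 5 other processing settings tried (at most 0.0400). With DESeq2 size factors the median of all genes moved from -0.08 to -0.24, the share of called genes that were higher went from 63.3% to 40.5%, and Acan (0.57, adjusted p = 0.0831) and Matn4 (0.59, adjusted p = 0.107) no longer passed. With DESeq2 in place of edgeR Matn4 did not pass either (0.59, adjusted p = 0.0528). Acan and Matn4 also lost their call in some fits without 1 pair of libraries, Acan without the first pair of SSC, pBCSP or HEC (0.57 to 0.62) and Matn4 without 1 of 4 pairs (0.58 to 0.74).

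**Figure D3:**
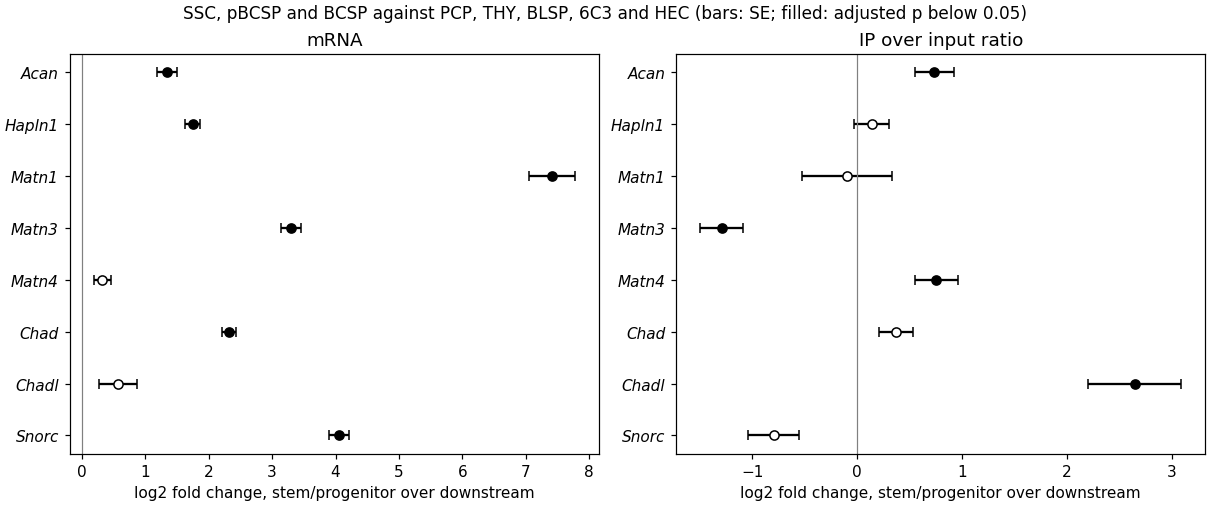
Log2 fold change (point) and SE (bar) of stem/progenitor over downstream WT populations for input mRNA (left) and for the IP-to-input ratio (right), filled where the adjusted p is below 0.05. Matn1 and Matn3 are among the most increased in mRNA (7.41 and 3.30), while the ratio is lower for Matn3 (-1.29) and higher for Chadl (2.65).

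For the Mettl3cko comparison, the targeted gene was read first. Mettl3 input levels in WT and Mettl3cko were 15.5 and 15.6 against 16.8 and 18.8 CPM in SSC, 12.2 and 16.3 against 22.4 and 23.2 CPM in pBCSP, and 18.3 and 19.9 against 16.5 and 18.0 CPM in BCSP. Over the 3 populations the log2 fold change was 0.25 (SE 0.17, adjusted p = 0.449), so Mettl3 mRNA was not lower in the libraries labelled Mettl3cko. Counts over the whole gene do not resolve the exons that Cre removes, and they therefore do not check the deletion. Directions given here rest on the labels of these libraries.

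Of the 8 genes, only Chad was lower in the libraries labelled Mettl3cko in all 3 populations at an unadjusted p below 0.05. In SSC it was at 11754 and 14075 CPM in WT and 6215 and 7418 in Mettl3cko (log2 fold change -0.92, SE 0.21, unadjusted p = 0.00247, adjusted p = 0.162). In pBCSP it was at 4609 and 4996 CPM against 1783 and 3346 (-0.89, unadjusted p = 0.0343, adjusted p = 0.569), and in BCSP at 11068 and 13423 CPM against 5508 and 6440 (-1.04, unadjusted p = 0.00136, adjusted p = 0.206). No Mettl3cko library overlapped with a WT library of its population. On the log2 scale Matn3 was at -0.60, -0.52 and -0.31 in SSC, pBCSP and BCSP, and Snorc at -0.32, -0.06 and -0.78. Of these values only that of Snorc in BCSP had an unadjusted p below 0.05. A gene was counted as changed by the study's rule, an absolute log2 fold change over 0.5 with an unadjusted p below 0.05. Chad was the only gene of the 8 called in SSC, where 7.07% of genes were lower by this rule, and in pBCSP, where 4.48% were.

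**Figure D4:**
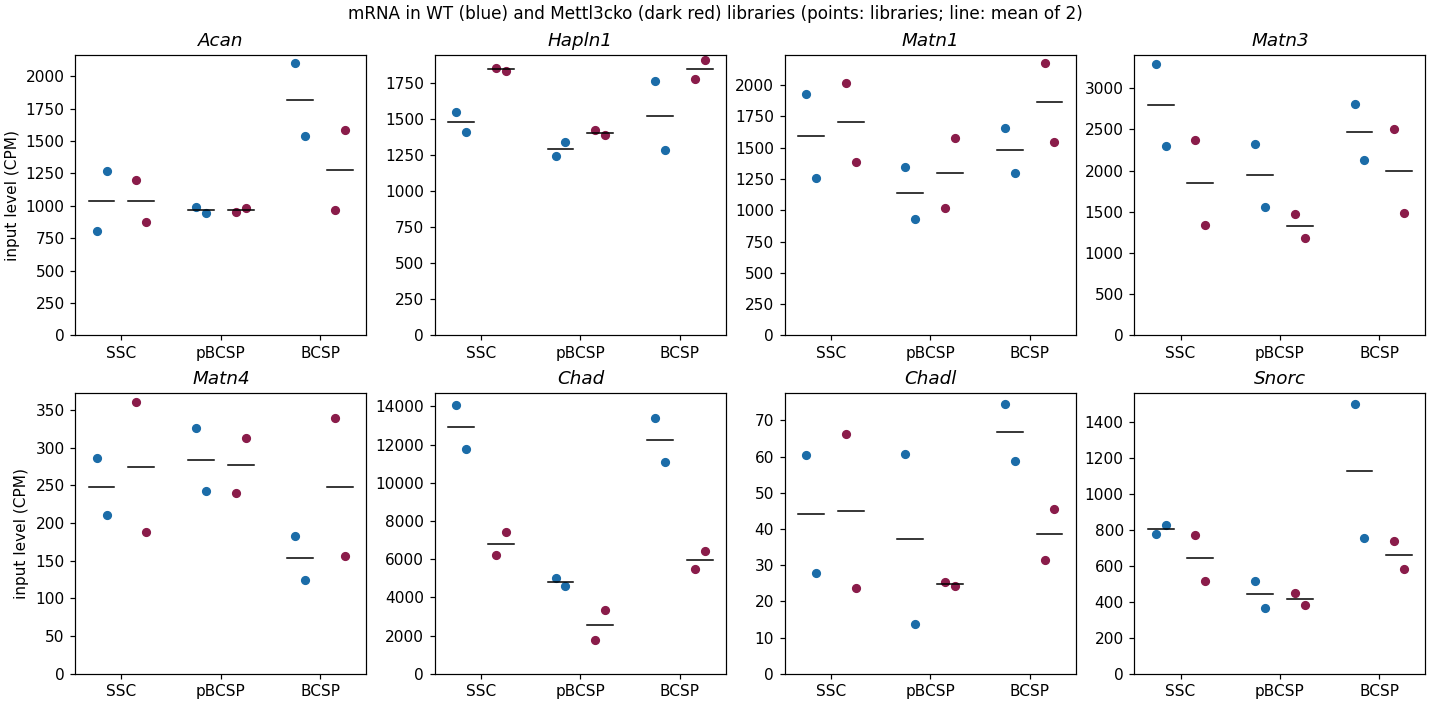
Input level in CPM of each gene in the 2 WT (blue) and 2 Mettl3cko (dark red) libraries (points) of SSC, pBCSP and BCSP, with their mean (line); each axis starts at 0. Chad is lower in both Mettl3cko libraries of each population, and the genotypes overlap for Matn1 and Matn4 in all 3.

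Over the 12 libraries with population as a term, Chad was lower by -0.94 on the log2 scale (SE 0.14, adjusted p = 0.00160), 1.93-fold, and it was the only gene of the 8 that passed, where 2.64% of 18655 genes were lower. Leaving out each library in turn gave -0.85 to -1.08. A test of difference in the change among the 3 populations passed for 0 of 18655 genes in edgeR (839 at an unadjusted p below 0.05, and 39 at an adjusted p by DESeq2), so it does not show whether the change of Chad was alike in them. The call in pBCSP alone was lost without either WT library (unadjusted p = 0.111 and 0.0724). Acsf2, which overlaps Chad on the opposite strand, was also lower over the 3 populations (-0.93, adjusted p = 0.0157), at 21.7 ± 0.20 CPM in WT and 13.1 ± 0.073 in Mettl3cko SSC (SD, n = 2), and reads of the overlap cannot be told apart. The summed chondrocyte markers were at 68723 and 73846 CPM in Mettl3cko pBCSP against 107510 and 113940 in WT, at 79758 and 134820 against 110590 and 125440 in SSC, and at 96577 and 117810 against 106210 and 124530 in BCSP. Of the 3 populations, the genotypes did not overlap in pBCSP. Of 7 blood markers tested, Hba-a1 and Hbb-bs were higher in the libraries labelled Mettl3cko, with the list summing to 14.8 to 36.4 CPM against 6.58 to 17.1 in WT. In edgeR 0 of 5 endothelial (0 at an unadjusted p below 0.05, 0 by DESeq2), 0 of 6 osteoblast (2 and 0), 0 of 3 muscle (1 and 0), 0 of 4 fibroblast and tendon (2 and 2), 0 of 3 stroma (2 and 1) and 0 of 7 chondrocyte markers (2 and 0) passed, and of 4 hypertrophic markers Ihh was higher. The part of these cells in the result was not tested.

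In BCSP, 2 further genes met the study's rule, where 5.72% of genes were lower. Chadl was at 58.9 and 74.4 CPM in WT and 31.5 and 45.5 in Mettl3cko (-0.80, unadjusted p = 0.0189, adjusted p = 0.294). Snorc was at 757 and 1503 CPM against 584 and 740 (-0.78, unadjusted p = 0.0467, adjusted p = 0.379), and without the first WT library the change was -0.21 (unadjusted p = 0.431), and without the second Mettl3cko library it was -0.61 (unadjusted p = 0.107). Chadl lost its call without the first WT library (-0.63) or the first Mettl3cko library (-0.57). Its call in BCSP was also lost when the fit took in the 12 input libraries of both genotypes (-0.81, unadjusted p = 0.2015). Hapln1 was higher in both Mettl3cko libraries than in both WT libraries of each population, at 1838 and 1853 against 1412 and 1550 CPM in SSC, 1390 and 1422 against 1246 and 1341 in pBCSP, and 1782 and 1914 against 1289 and 1762 in BCSP. Over the 3 populations, Matn3 (-0.47, unadjusted p = 0.0177, adjusted p = 0.132) and Hapln1 (0.25, unadjusted p = 0.0256, adjusted p = 0.164) did not pass. Neither did Snorc (-0.38, adjusted p = 0.250), Chadl (-0.44, adjusted p = 0.505), Matn4 (0.27, adjusted p = 0.523), Matn1 (0.22, adjusted p = 0.491) or Acan (-0.16, adjusted p = 0.644). Acan was at -0.01 in SSC and 0.02 in pBCSP, signs that turned under other settings, and its libraries overlapped between the genotypes in both.

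In the fit over the 12 libraries, where the median of all genes was -0.04 and 3.83% of genes were higher and 2.64% lower, 3 of the 10 measured hyaluronan-associated genes rose and none fell. These were Has1 (0.82, adjusted p = 0.00570) and Has2, which are hyaluronan synthases, and the receptor Cd44 (0.45, adjusted p = 0.0254). Of 16 cartilage collagens and other matrix genes 1 was lower (Cytl1), with Col2a1 at -0.33 (adjusted p = 0.237). Of the 9 transcription factors 0 passed in edgeR (1 at an unadjusted p below 0.05, and 1 by DESeq2, Trps1, at -0.49 with adjusted p = 0.0651 in edgeR). Of the 9 proteases and inhibitor 0 passed (2 at an unadjusted p below 0.05, 0 by DESeq2), with Mmp13 at -0.88 (adjusted p = 0.291).

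The IP-to-input ratios of the libraries labelled Mettl3cko were not lower than WT for any of the 8 genes at an unadjusted p below 0.05. Of the 24 pairs of gene and population 5 were called, all with a higher ratio, and 0 had an adjusted p below 0.05 in edgeR (0.196 to 0.387), where 0 of all genes tested did in any of the 3 populations. Without the filter on low counts edgeR gave 1 of the 24 at an adjusted p below 0.05, as did DESeq2 (1 of 24). Among all genes, the share called was 10.3% in BCSP, 11.9% in pBCSP and 14.5% in SSC. Most of these genes had a lower ratio in Mettl3cko: 1376 of 1814 for BCSP, 1726 of 2087 for pBCSP and 1943 of 2505 for SSC. In SSC the WT and Mettl3cko replicates of Matn1 were at -1.61 and -1.68 against -0.18 and 0.28 (difference 1.70 on the log2 scale, unadjusted p = 0.00692). Those of Acan were at 1.64 and 0.56 against 2.38 and 2.46 (1.38, unadjusted p = 0.0152), and those of Snorc at 1.15 and 0.26 against 1.84 and 2.65 (1.51, unadjusted p = 0.0109). Without the second WT pair of SSC, Acan (0.81, unadjusted p = 0.125) and Snorc (1.11, unadjusted p = 0.0667) were no longer called, and Snorc also lost its call without the second Mettl3cko pair (1.14, unadjusted p = 0.0636).

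**Figure D5:**
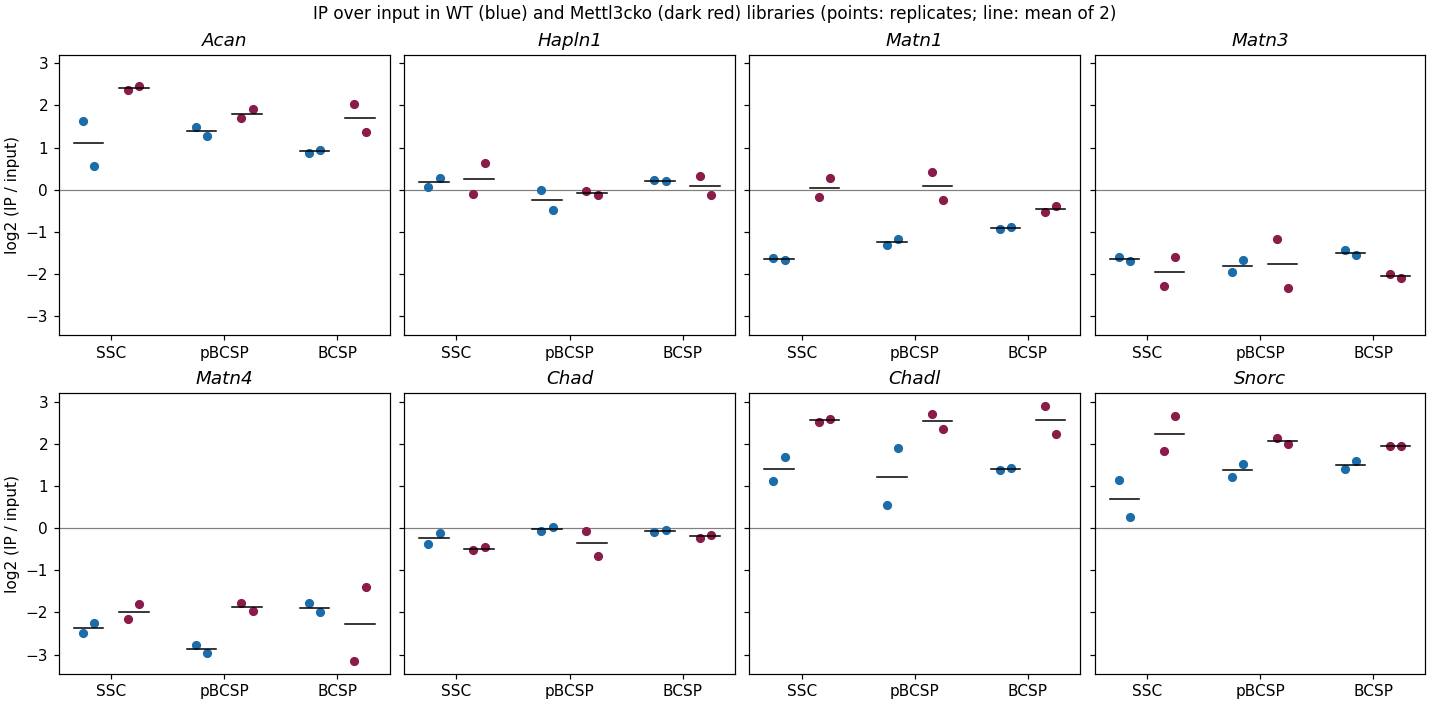
Log2 IP-to-input ratio of each gene in the 2 replicates (points) of WT (blue) and Mettl3cko (dark red) SSC, pBCSP and BCSP. IP and input are matched by number, and the line is the mean. The Mettl3cko points of Acan, Matn1, Chadl and Snorc lie above the WT points in every population.

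Matn1 was also higher in pBCSP (1.24, unadjusted p = 0.0177; 0.0674 without the first WT pair), and Chadl was higher in BCSP, at 1.39 and 1.43 in WT against 2.90 and 2.24 (1.17, unadjusted p = 0.0132; 0.0544 to 0.0878 without either WT pair or the first Mettl3cko pair). For Acan, Matn1, Chadl and Snorc both Mettl3cko replicates lay above both WT replicates in SSC, pBCSP and BCSP. The reverse held for Chad in SSC and BCSP and for Matn3 in BCSP, where both Mettl3cko replicates lay below both WT replicates without passing the test. Matn4 was at -1.40 or below in every Mettl3cko replicate. Its Mettl3cko replicates lay above both WT replicates in SSC (0.40, unadjusted p = 0.482) and pBCSP (0.89, unadjusted p = 0.0679) without passing. In BCSP the genotypes overlapped. The median ratio of all genes differed by -0.16, -0.26 and -0.10 between the genotypes in SSC, pBCSP and BCSP (-0.34 in SSC with library size alone), and the differences printed here are the fitted values, without that median taken off.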

How the data were processed

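SLIM-seq IP and input libraries from sorted cells of postnatal day 3 mice were analysed: 44 libraries in 22 conditions with 2 replicates each. The authors trimmed reads with fastp 0.20.1, aligned them to GRCm38 with HISAT2 2.2.1 and counted them per gene with featureCounts 2.0.1; the annotation release and strand setting are not given in the sources used here. The deposited values are raw counts. Deposited tables of the authors' own DESeq2 fold changes and p-values for WT and Mettl3cko SSC, and of the m6A and mRNA changes of those genes, were not used. Of 46959 entries, 128 named as dates were left out (at most 0.390% of a library), and rows were matched by symbol.

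Counts were scaled by TMM and tested with edgeR 4.0.16 (R 4.3.3) quasi-likelihood fits after filterByExpr, with Benjamini-Hochberg adjustment over all genes tested; p-values are two-sided. DESeq2 1.42.0 was an alternative. Levels are CPM, and log2 CPM has a prior count of 2. The study calls its 2 replicates independent biological experiments, but the labels tie none to an animal or litter; replicates differed by more than sampling noise. The other settings were size factors, library size alone, no filter, leaving out libraries and a replicate block. All 8 genes passed the filter in every comparison as reported. Genes named are the 8 members, Mettl3, the overlapping genes, the 3 most similar genes each and at most 4 per list by mean CPM; other list members (Has2, Cytl1, Ihh, Hba-a1, Hbb-bs) were named after their values were seen. The members, lists and tests were chosen with earlier results of these data known. The rule for IP depletion was added after the data were seen. The tests were first run on simulated data. There the test of the Mettl3cko ratio in SSC recovered no set change at an adjusted p below 0.05. The tests of IP over input and of Mettl3cko mRNA in SSC missed most changes of the smaller size set. At the larger size, the test of IP over input missed about as many changes as it recovered. A lack of adjusted calls in these tests therefore does not show a lack of change.

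The same-numbered libraries were checked for pairing: IP and input deviations correlated at 0.02 to 0.24 (over 0.1 in 4 of 11 conditions) and those of WT and Mettl3cko input at -0.0033 to 0.0056, so numbers were not taken as pairs.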

Additional observations from a re-analysis of the deposited data

Results flagged for a closer look

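The IP-to-input ratio differed between the stem/progenitor and the downstream WT populations, by a test of the difference itself, for Acan (0.74 on the log2 scale), Matn3 (-1.29), Matn4 (0.75) and Chadl (2.65). The replicates of Matn3 and Chadl did not overlap between the groups of populations, and those of Acan and Matn4 did. Matn4 did not pass with DESeq2 in place of edgeR (adjusted p = 0.0528). With DESeq2 size factors Acan (adjusted p = 0.0831) and Matn4 (adjusted p = 0.107) no longer passed in edgeR, and of 16 fits without 1 pair of libraries Acan passed in 13 and Matn4 in 12.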

How the results depend on the processing

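The direction of every member result with an unadjusted p below 0.05 was kept under every setting run: of 420 values under other processing, 392 stayed on the same side of the threshold, 7 lost it and 21 gained it, and of 740 values with libraries left out, 664 stayed, 45 lost it and 31 gained it. Of the 93 member values with a larger p, 35 changed sign under at least 1 setting, 10 of them under other processing, and no direction is given for them. Their log2 values after the change were as follows. With library size alone they were 0.056 Chad (the ratio in pBCSP), -0.14 Hapln1 (the ratio in THY), -0.0043 Hapln1 (the ratio in HEC), -0.0016 Chadl (mRNA Mettl3cko over WT in SSC), -0.041 Hapln1 (the ratio, Mettl3cko over WT in SSC). With no filter on low counts they were -0.15 Hapln1 (the ratio in PCP), -0.15 Hapln1 (the ratio in THY) and -0.0046 Hapln1 (the ratio in HEC). With DESeq2 size factors in edgeR they were 0.0050 Matn3 (the ratio in 6C3), -0.026 Hapln1 (the ratio stem/progenitor over downstream), 0.014 Acan (mRNA Mettl3cko over WT in SSC). With DESeq2 in place of edgeR they were 0.0050 Matn3 (the ratio in 6C3), -0.026 Hapln1 (the ratio stem/progenitor over downstream), 0.014 Acan (mRNA Mettl3cko over WT in SSC). With a fit over 12 input libraries it was 0.016 Acan (mRNA Mettl3cko over WT in SSC). With libraries left out, the log2 ranges that held both signs were as follows. For mRNA Mettl3cko over WT in pBCSP they were -0.0041 to 0.036 (Acan), -1.26 to 0.84 (Chadl), -0.14 to 0.48 (Matn1), -0.22 to 0.19 (Matn4), -0.29 to 0.18 (Snorc). For mRNA Mettl3cko over WT in SSC they were -0.30 to 0.38 (Acan), -0.87 to 0.69 (Chadl), -0.18 to 0.44 (Matn1), -0.38 to 0.53 (Matn4). For mRNA SSC over pBCSP they were -0.28 to 0.42 (Acan), -0.46 to 1.66 (Chadl), -0.40 to 0.032 (Matn4). For the ratio in 6C3 they were -0.52 to 0.11 (Chad), -0.24 to 0.48 (Hapln1), -1.44 to 1.36 (Matn1), -0.49 to 0.33 (Matn3). For the ratio in BCSP they were -0.26 to 0.0050 (Chad), -0.078 to 0.39 (Hapln1). For the ratio in pBCSP they were -0.10 to 0.013 (Chad). For mRNA PCP over other downstream they were -0.55 to 0.76 (Chadl), -0.18 to 0.047 (Snorc). For the ratio in HEC they were -0.11 to 0.15 (Hapln1), -1.86 to 0.082 (Matn1), -0.37 to 0.15 (Matn3). For the ratio in PCP they were -0.23 to 0.13 (Hapln1). For the ratio in THY they were -0.11 to 0.046 (Hapln1). For the ratio, Mettl3cko over WT in BCSP they were -0.32 to 0.15 (Hapln1), -1.25 to 0.49 (Matn4). For the ratio, Mettl3cko over WT in pBCSP they were -0.042 to 0.36 (Hapln1), -0.56 to 0.67 (Matn3). For the ratio, Mettl3cko over WT in SSC they were -0.22 to 0.49 (Hapln1), -0.59 to 0.081 (Matn3). For the ratio stem/progenitor over downstream they were -0.073 to 0.22 (Hapln1), -0.39 to 0.23 (Matn1). For mRNA Mettl3cko over WT in BCSP they were -0.75 to 0.024 (Matn3).

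Counts of called genes (as reported first) moved over 1.5 times as follows. Without a filter, SSC over pBCSP went from 1 to 2, pBCSP over BCSP from 2 to 4, PCP over other downstream from 2 to 5, and Mettl3cko over WT from 1 to 2 in SSC, 1 to 2 in pBCSP, 3 to 5 in BCSP and 1 to 2 over the 3 populations. With DESeq2, PCP over other downstream went to 4, and Mettl3cko over WT to 2 in SSC and 5 in BCSP. With library size alone, Mettl3cko over WT in pBCSP went to 0, and with an adjusted p below 0.05 it went to 0 in SSC, 0 in pBCSP and 0 in BCSP. The replicate block, which adds the replicate number although it was not shown to pair the samples, gave 1 gene in PCP over other downstream, 2 in Mettl3cko over WT in SSC, 2 in pBCSP, 2 over the 3 populations, and 12 in place of 5 calls for the Mettl3cko ratios. It turned the sign of Acan (0.014) and Chadl (-0.046) in mRNA of Mettl3cko over WT SSC and of Matn3 (-0.022) in the Mettl3cko ratio in pBCSP. The block moved the all-gene median of these ratios from -0.16 to -0.68 in SSC, from -0.26 to -0.55 in pBCSP and from -0.10 to -0.31 in BCSP. Leaving out libraries gave 1 to 4 for pBCSP over BCSP, 0 to 4 for PCP over other downstream, 1 to 4 (SSC), 0 to 2 (pBCSP) and 1 to 4 (BCSP) for Mettl3cko over WT, and 3 to 6 calls for the Mettl3cko ratios. Without a filter the all-gene median of the stem/progenitor mRNA contrast went from -0.11 to -0.52. The tagged pairs stayed at 8 to 12 and the stem/progenitor mRNA calls at 6 to 8. The cause of these changes was not tested, apart from the stricter rule of the adjusted p. Depth limits Matn1 and Chadl downstream, where IP counts were as low as 20 and 14.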
